A study of Saccharomyces cerevisiae with 12 samples.

Results

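The vacuolar proton pump (V-ATPase) of budding yeast was followed through 10 of its subunit genes: VMA1, VMA2, VMA4, VMA5, VMA8, VMA10 and VMA13 of the peripheral sector, and VMA3, VPH1 and STV1 of the membrane sector. They were taken by gene name from the 7112 annotated features of an RNAseq table, and all 10 passed the filter on low counts, as did 6691 features in all. The libraries were made from poly(A) RNA of *Saccharomyces cerevisiae* cultures, 3 biological replicates in each of 4 groups, 12 libraries in all. The study asked how loss of SIS2 and a low supply of potassium change gene expression. The groups were *sis2*Δ in 0.5 mM KCl, *sis2*Δ in 7.35 mM KCl, WT in 0.5 mM KCl and WT in 7.35 mM KCl. Both strains were MATa; the mutant carried sis2d0::kanMX, while WT had neither the deletion nor the kanMX marker, and each genotype was 1 strain (CGY41.34 for *sis2*Δ, CGY41.30 for WT). All cultures, the controls too, had been grown overnight in 7.35 mM KCl and were then kept in exponential growth for 24 h in medium with the stated KCl. The medium was at pH 4.5 in all 4 groups, and the strains lacked the fluorescent reporter used elsewhere in the study. For potassium titrations the study's methods name a base medium free of potassium, with sodium in place of ammonium phosphate and either ammonium sulfate or arginine as nitrogen source; which of the 2 nitrogen sources these cultures had is not given in the sources used here.

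The pump is a rotary machine that uses ATP hydrolysis in its peripheral V1 sector to drive protons through its membrane-embedded Vo sector, acidifying the vacuole, endosomes and Golgi. The proton gradient powers the exchange of ions and amino acids across the vacuolar membrane, and the sectors can separate and rejoin, so that activity is also set after the proteins are made. SIS2 encodes a regulatory subunit of the Ppz phosphatases, which restrain potassium uptake, and also takes part in coenzyme A synthesis.

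Library totals lay between 35451323 and 46543107 counts, and the targeted gene matched the labels: SIS2 had 1.11 to 2.07 CPM in the 6 *sis2*Δ libraries, against 80.7 to 95.3 CPM in the 6 WT libraries. CPM are counts scaled to the library total and corrected for composition by TMM, so they are shares of the RNA in bulk cultures, in which fewer cells of a kind and less RNA per cell cannot be told apart. The 5 markers of MATa cells summed to 2143 to 2290 CPM in *sis2*Δ in 0.5 mM KCl and 1783 to 1925 CPM in *sis2*Δ in 7.35 mM KCl, and to 2096 to 2646 CPM and 1766 to 1815 CPM in WT in the same order of KCl. The 4 markers of MATα cells summed to 67.5 to 73.9 and 50.8 to 52.5 CPM in *sis2*Δ, and to 70.6 to 71.0 and 45.2 to 47.7 CPM in WT. None was at 0, although MF(ALPHA)1 had only 0.274 to 3.17 CPM. In low potassium, 2 of the 5 MATa and 3 of the 4 MATα markers were called higher in *sis2*Δ, where 24.2% of all genes were. In WT 3 and 4 of them were, where 24.1% of all genes were. None was called lower, where 21.7% of all genes were in *sis2*Δ and 23.2% in WT. The part of these markers in the results was not tested. A gene passed if its adjusted p was below 0.05. Unless DESeq2 is named, every adjusted p given comes from the quasi-likelihood test in edgeR. Each was corrected by the Benjamini-Hochberg procedure over all genes tested in its fit, 6691 in the main fit.

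Per kilobase of coding sequence, the membrane-sector proteolipid gene VMA3 was the highest of the 10 transcripts and STV1 the lowest. The annotation used for counting is not given, so any counted length outside the coding sequence is not corrected for. VMA3 and VMA10, with 483 and 345 coding bases, are the shortest of the 10. Expressed per kilobase of coding sequence in WT with 7.35 mM KCl (mean ± SD, n = 3), VMA3, which encodes the c subunit of the proton-carrying ring, present in several copies in each pump, stood at 1529 ± 159 CPM per kb. VMA10, the G subunit of the stalks that hold the motor still, followed at 773 ± 86.8 CPM per kb. VMA2, the B subunit of the catalytic head, stood at 454 ± 15.6 CPM per kb. No library of one of these 3 genes overlapped with those of the next in order.

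Lower in the same order came VMA8 (subunit D of the rotor) at 373 ± 17.6 CPM per kb and VMA5 (subunit C, which joins the stalks to the membrane sector) at 343 ± 16.3 CPM per kb, whose libraries overlapped. VMA4 (subunit E of the stalks) and VMA1 (the catalytic A subunit, made as a precursor that also holds a self-splicing endonuclease) were at 303 ± 18.0 and 301 ± 16.9 CPM per kb, again with overlap. The place of VMA4 in this order is uncertain, because the feature YOR331C may share its reads, as described below. VPH1 at 261 ± 21.6 CPM per kb and VMA13 (subunit H, which holds a detached peripheral sector inactive) at 253 ± 1.92 CPM per kb overlapped as well. STV1 stood apart at 50.3 ± 4.58 CPM per kb. The spread between libraries was narrow: from the lowest to the highest of all 12 libraries a subunit varied by between 1.16-fold (VMA13) and 1.44-fold (VMA3), and the 10 genes together held between 0.456% and 0.502% of all counts.

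**Figure D1:**
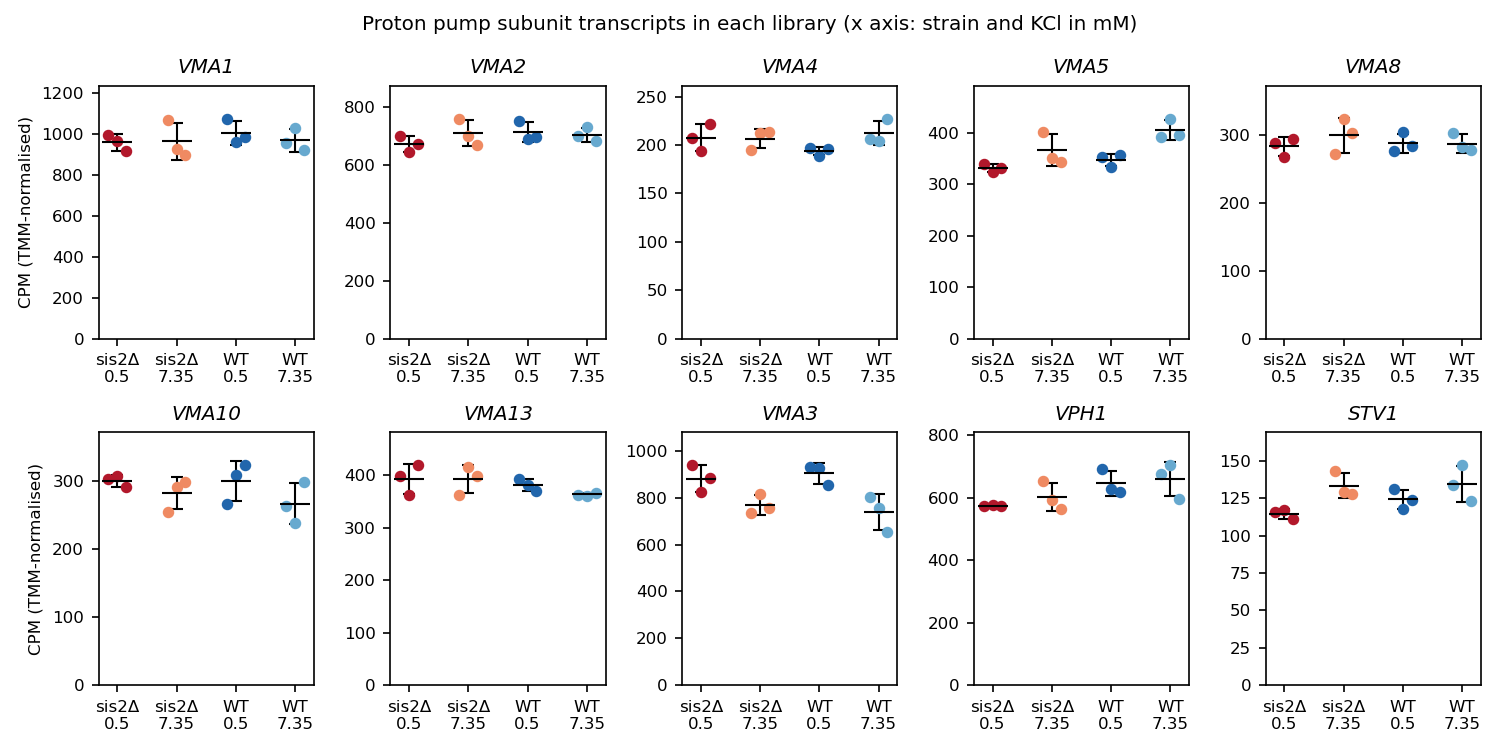
TMM-normalised CPM (y axis, from 0) of the 10 subunit genes in each library, by strain and KCl in mM (x axis); points are libraries, the wide line is the group mean and the bars are 1 SD (n = 3). VMA3 stands higher in 0.5 mM than in 7.35 mM KCl in both strains without overlap, while the groups of VMA1, VMA2, VMA8 and VMA10 overlap in every comparison.

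Of the 10 subunits, only VMA3 passed the test in low potassium in both strains, and it was higher there. In *sis2*Δ, VMA3 had 939, 824 and 885 CPM in 0.5 mM KCl, against 735, 818 and 755 CPM in 7.35 mM KCl. In WT it had 933, 930 and 854 CPM in 0.5 mM KCl, against 803, 759 and 653 CPM in 7.35 mM KCl. The groups did not overlap in either strain, although in *sis2*Δ the lowest library in low potassium and the highest in regular potassium, both of batch 2, lay close together.

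The log2 fold change of VMA3 was 0.20 in *sis2*Δ (SE 0.0754, 95% CI 0.04 to 0.35, edgeR adjusted p = 0.0373) and 0.29 in WT (SE 0.0754, 95% CI 0.14 to 0.45, edgeR adjusted p = 0.00294). Within batches 1, 2 and 3 the differences were 0.35, 0.01 and 0.23 in *sis2*Δ and 0.22, 0.29 and 0.39 in WT. The difference between the strains, -0.10 (SE 0.107, 95% CI -0.32 to 0.13), did not pass the interaction test (edgeR adjusted p = 0.751). The WT value passed under all 21 alternatives, which ranged from 0.22 to 0.36 with edgeR or DESeq2 adjusted p of at most 0.0232. The *sis2*Δ value passed under 16 of 21 and was lost without replicate 1 (0.15, edgeR adjusted p = 0.169) or replicate 3 (0.20, 0.0706) of *sis2*Δ in 0.5 mM KCl, without replicate 1 (0.17, 0.115) or replicate 3 (0.18, 0.106) of *sis2*Δ in 7.35 mM KCl, and when the length trend described below was removed (0.13, 0.145).

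VMA5 was lower in low potassium in WT. It had 353, 334 and 356 CPM in WT in 0.5 mM KCl, against 392, 427 and 395 CPM in WT in 7.35 mM KCl, with no overlap. In *sis2*Δ it had 339, 324 and 332 CPM in 0.5 mM KCl, against 402, 352 and 344 CPM in 7.35 mM KCl, again with no overlap but with 1 library, replicate 1 in 7.35 mM KCl, well above its group. The log2 fold change was -0.22 in WT (SE 0.065, 95% CI -0.36 to -0.08, edgeR adjusted p = 0.00834) and -0.14 in *sis2*Δ (SE 0.065, 95% CI -0.28 to -0.01, edgeR adjusted p = 0.0778), and the interaction was 0.08 (SE 0.0919, edgeR adjusted p = 0.778). All 3 batches gave a negative difference in each strain, -0.15, -0.35 and -0.15 in WT and -0.25, -0.12 and -0.05 in *sis2*Δ.

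The WT call for VMA5 was lost without replicate 2 of WT in 0.5 mM KCl (-0.19, edgeR adjusted p = 0.0509) or in 7.35 mM KCl (-0.18, 0.0553). In *sis2*Δ, VMA5 passed without replicate 3 of *sis2*Δ in 7.35 mM KCl (-0.19, edgeR adjusted p = 0.0406), with library totals alone (-0.17, 0.0469) and with DESeq2 (-0.15, 0.041). Without replicate 1 of *sis2*Δ in 7.35 mM KCl, the library well above its group, its value there was only -0.07 (edgeR adjusted p = 0.396).

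STV1, which encodes the form of subunit a that resides in the Golgi and endosomes, was lower in low potassium in *sis2*Δ. It had 116, 117 and 111 CPM in *sis2*Δ in 0.5 mM KCl, against 143, 129 and 128 CPM in *sis2*Δ in 7.35 mM KCl, with no overlap. In WT it had 131, 118 and 124 CPM in 0.5 mM KCl, against 134, 147 and 123 CPM in 7.35 mM KCl, and the groups overlapped. The log2 fold change was -0.22 in *sis2*Δ (SE 0.0662, 95% CI -0.35 to -0.08, edgeR adjusted p = 0.0111) and -0.11 in WT (SE 0.066, 95% CI -0.25 to 0.03, edgeR adjusted p = 0.172), and the interaction was -0.10 (SE 0.0935, edgeR adjusted p = 0.676). The batches gave -0.30, -0.14 and -0.20 in *sis2*Δ and -0.03, -0.31 and 0.01 in WT. The *sis2*Δ call was lost without replicate 1 of *sis2*Δ in 7.35 mM KCl (-0.16, edgeR adjusted p = 0.0681), and STV1 passed in WT without replicate 3 of WT in 7.35 mM KCl (-0.17, 0.0461) but was at -0.04 without replicate 2 of the same group (edgeR adjusted p = 0.675).

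The other 7 subunits did not pass in either strain in low potassium. VMA10 came closest to an increase in WT, with 267, 309 and 323 CPM in 0.5 mM KCl, against 264, 238 and 298 CPM in 7.35 mM KCl. Its groups overlapped, and its log2 fold change of 0.17 (95% CI -0.00 to 0.34, edgeR adjusted p = 0.0998) passed without replicate 1 of WT in 0.5 mM KCl (0.25, 0.0187) or replicate 3 of WT in 7.35 mM KCl (0.26, 0.0196). It was smaller without replicate 3 of WT in 0.5 mM KCl (0.11, edgeR adjusted p = 0.351), without replicate 2 of WT in 7.35 mM KCl (0.10, 0.394) and with the length trend removed (0.08, 0.269). VMA4 had 197, 189 and 196 CPM in WT in 0.5 mM KCl, against 206, 204 and 227 CPM in WT in 7.35 mM KCl, with no overlap and a difference of -0.13 on the log2 scale (edgeR adjusted p = 0.0921). The catalytic pair stayed close to 0: VMA1 differed by -0.01 in *sis2*Δ (95% CI -0.16 to 0.14) and 0.05 in WT (-0.09 to 0.20), and VMA2 by -0.08 (-0.21 to 0.05) and 0.02 (-0.12 to 0.15) on the log2 scale. VPH1, the form of subunit a that resides in the vacuole, differed by -0.07 (-0.22 to 0.08) and -0.03 (-0.18 to 0.12), VMA8 by -0.08 (-0.22 to 0.06) and 0.00 (-0.14 to 0.14), and VMA13 by 0.00 (-0.13 to 0.14) and 0.07 (-0.06 to 0.21).

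Set against all genes, few pump subunits passed in low potassium. In *sis2*Δ, 1 of the 10 subunits was called higher and 1 lower, where 24.2% and 21.7% of all 6691 genes were. In WT, 1 was called higher and 1 lower, where 24.1% and 23.2% of all genes were. Complete separation of the 2 groups of 3 libraries was seen for 3 subunits in *sis2*Δ (VMA3, VMA5, STV1), against 52.8% of all genes, and for 4 in WT (VMA3, VMA4, VMA5, VMA13), against 56.3% of all genes. The median absolute log2 fold change of the 10 was 0.08 in *sis2*Δ and 0.09 in WT, beside 0.17 over all genes in each strain. No test of the set was made, and the genes it was set against were not matched to the subunits in count level.

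**Figure D2:**
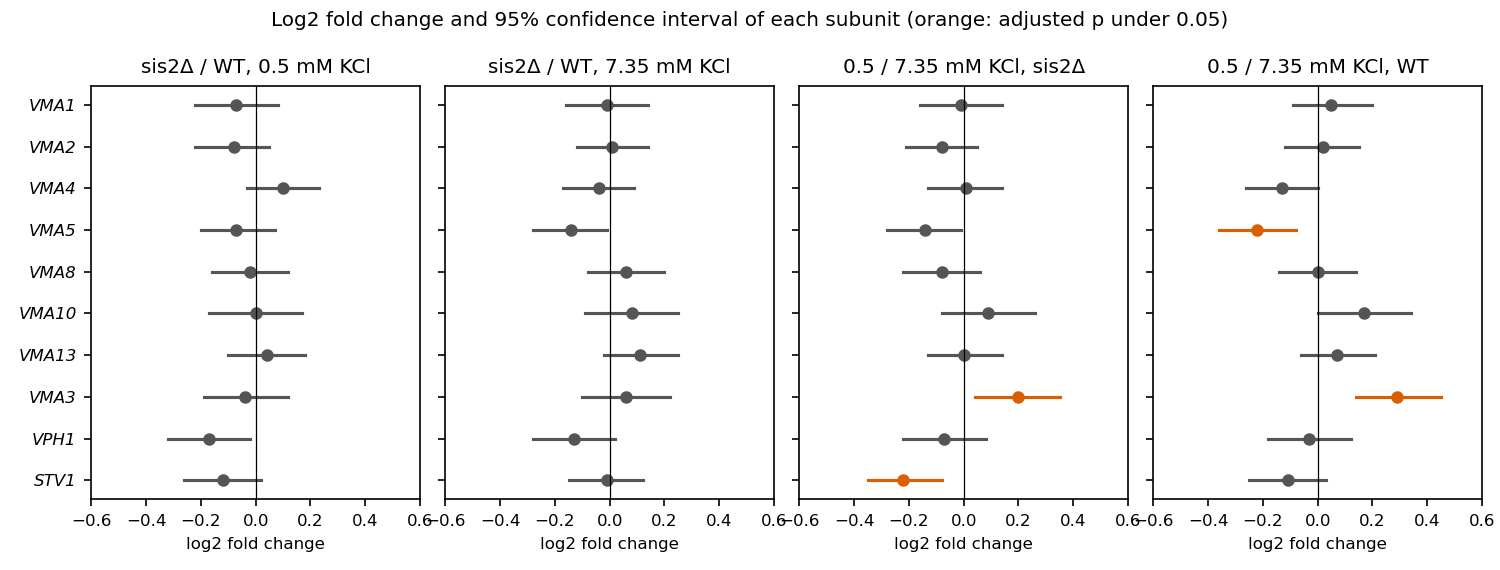
Log2 fold change (x axis) of each subunit with its 95% confidence interval in 4 comparisons, *sis2*Δ over WT in each KCl concentration and 0.5 over 7.35 mM KCl in each strain; orange marks an adjusted p below 0.05. The orange points are VMA3 (0.20) and STV1 (-0.22) in *sis2*Δ and VMA3 (0.29) and VMA5 (-0.22) in WT, and no point of the strain comparisons is orange.

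Loss of SIS2 changed none of the 10 subunit transcripts past the threshold in either medium. In 0.5 mM KCl, 0 were called higher and 0 lower, where 1.2% and 0.583% of all genes were, with log2 fold changes between -0.17 (VPH1) and 0.10 (VMA4). In 7.35 mM KCl, 0 were called higher and 0 lower, where 6.38% and 7.04% of all genes were, with log2 fold changes between -0.14 (VMA5) and 0.11 (VMA13). DESeq2 also called 0 in both media. Of the unadjusted p, 1 fell below 0.05 in each medium, that of VPH1 (0.0261) in 0.5 mM KCl and that of VMA5 (0.0381) in 7.35 mM KCl. The 95% intervals of the 10 genes reached at most a 19.8% decrease and a 17.3% increase in 0.5 mM KCl, and a 17.6% decrease and an 18.9% increase in 7.35 mM KCl, so that larger changes of a single subunit lay outside its interval.

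VPH1 had 573, 575 and 573 CPM in *sis2*Δ in 0.5 mM KCl, against 691, 628 and 617 CPM in WT in 0.5 mM KCl. All 3 mutant libraries lay below all 3 WT libraries, as they did for STV1, and 16.8% of all genes showed such a separation in this comparison. The log2 fold change of VPH1 was -0.17 (SE 0.0711, 95% CI -0.32 to -0.02, edgeR adjusted p = 0.271), with batch differences of -0.27, -0.13 and -0.11. In 7.35 mM KCl the groups overlapped for all 10 subunits, against 32.2% of all genes whose groups did not. There VPH1 had 652, 592 and 562 CPM in *sis2*Δ, against 676, 703 and 597 CPM in WT (log2 fold change -0.13, edgeR adjusted p = 0.239). VMA5, at -0.14 in 7.35 mM KCl (edgeR adjusted p = 0.149), passed only without replicate 1 of *sis2*Δ in 7.35 mM KCl (-0.21, edgeR adjusted p = 0.0303), and was at -0.09 without replicate 3 of that group (0.51) or replicate 2 of WT in 7.35 mM KCl (0.482).

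The response to potassium was not found to differ between the strains for any subunit. In the interaction of strain and KCl, 0 of the 10 were called higher and 0 lower, where 1.7% and 1.03% of all genes were, and 0 had an unadjusted p below 0.05. DESeq2 called 0 as well. The log2 differences lay between -0.10 (STV1) and 0.14 (VMA4), with 95% intervals that together spanned -0.32 to 0.33.

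VPH1 and STV1 encode alternative forms of the same membrane subunit a, which send the pump to the vacuole or keep it in the Golgi and endosomes, and the ratio of their transcripts was higher in low potassium. It was also lower in *sis2*Δ, a difference that did not pass once libraries were paired by batch. Per coding kilobase, VPH1 exceeded STV1 by 5.24, 5.20 and 5.45 times in *sis2*Δ in 0.5 mM KCl, against 4.84, 4.86 and 4.65 times in *sis2*Δ in 7.35 mM KCl. In WT the ratio was 5.60, 5.61 and 5.27 in 0.5 mM KCl, against 5.36, 5.06 and 5.16 in 7.35 mM KCl. The groups in different KCl separated in *sis2*Δ and overlapped in WT.

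The ratio was higher in 0.5 than in 7.35 mM KCl by 0.115 on the log2 scale (1.08-fold; 0.147 in *sis2*Δ, 0.082 in WT), with p = 0.01 in an exact two-sided permutation test within strain. It was lower in *sis2*Δ than in WT by 0.943-fold (log2 difference -0.085; -0.052 in 0.5 mM KCl, -0.117 in 7.35 mM KCl), with p = 0.01 in the exact permutation test within KCl concentration. Each test had 400 arrangements and could not go below 0.005, and the Benjamini-Hochberg value over these 2 tests was 0.01 for each. With libraries paired by batch, the exact two-sided sign permutation gave p = 0.0312 for potassium, the smallest it allows, and p = 0.0625 for the strains, so the strain difference no longer passed. Leaving out any 1 library kept both differences, at 0.104 to 0.129 for potassium and -0.099 to -0.073 for the strains. The genes have similar coding lengths, 2523 bases in VPH1 and 2673 bases in STV1.

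**Figure D3:**
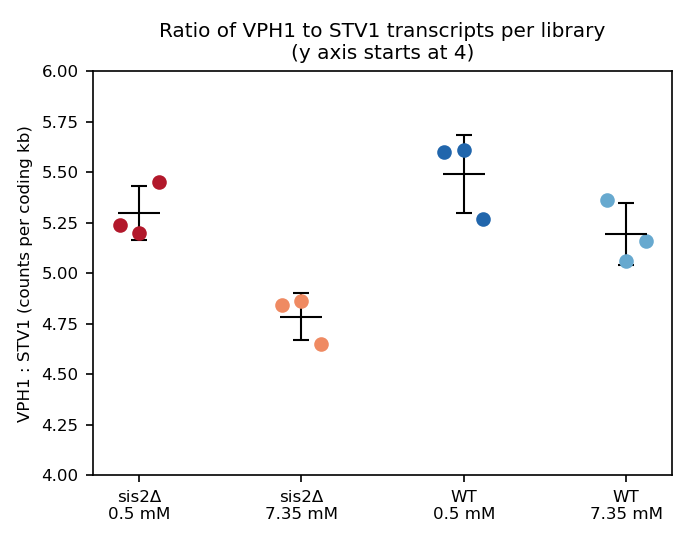
Ratio of VPH1 to STV1 counts per coding kilobase (y axis, starting at 4) in each library, by strain and KCl; points are libraries, wide lines group means and bars 1 SD (n = 3). The *sis2*Δ libraries in 7.35 mM KCl, at 4.65 to 4.86, lie below the other 9 libraries.

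The sequences of VPH1 and STV1 bear on whether their reads can be told apart. The longest stretch that the coding sequences share without a difference is 19 bases, far below the read length of 150 bases, while the proteins are 54.2% identical over 814 aligned residues. This stretch is shown with its surroundings in coding bases 1189 to 1248 of VPH1 and 1327 to 1386 of STV1 (RefSeq, R64), where capitals mark the 12 positions that differ in this window of 60 bases.
VPH1: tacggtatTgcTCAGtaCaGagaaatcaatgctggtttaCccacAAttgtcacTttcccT
STV1: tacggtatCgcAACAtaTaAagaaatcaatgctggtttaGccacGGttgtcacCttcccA
The same holds for VMA3 and its relatives of the proteolipid ring: it shares no run longer than 11 bases with VMA11 and 14 bases with VMA16.

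The upstream regions of the 3 subunits that passed in low potassium are shown because these genes went in different directions: VMA3 was higher, while VMA5 and STV1 were lower. Each window holds 250 bases before the coding start and the first 50 coding bases (RefSeq, R64, 5′ to 3′ along the gene), with matches to 6 searched motifs in capitals. The motifs, searched on both strands, were the stress response element CCCCT, the HAP element CCAAT, the TATA element TATAAA, the E-box CACGTG, the proteasome element GGTGGC and the PAC element GATGAG.
VMA3, chrV:100519-100818, forward strand: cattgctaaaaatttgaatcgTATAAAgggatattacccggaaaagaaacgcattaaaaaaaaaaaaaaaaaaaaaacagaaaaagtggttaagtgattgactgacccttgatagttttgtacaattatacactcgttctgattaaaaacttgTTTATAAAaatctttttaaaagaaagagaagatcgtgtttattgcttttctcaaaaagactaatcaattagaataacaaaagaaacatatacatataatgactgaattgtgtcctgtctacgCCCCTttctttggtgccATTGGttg
VMA5, chrXI:284780-285079, forward strand: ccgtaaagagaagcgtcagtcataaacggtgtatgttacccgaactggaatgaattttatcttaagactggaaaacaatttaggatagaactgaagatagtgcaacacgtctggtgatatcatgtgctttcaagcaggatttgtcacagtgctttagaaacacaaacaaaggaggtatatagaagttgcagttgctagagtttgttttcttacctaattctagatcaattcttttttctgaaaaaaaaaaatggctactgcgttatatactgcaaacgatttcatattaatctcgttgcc
STV1, chrXIII:383053-383352, forward strand: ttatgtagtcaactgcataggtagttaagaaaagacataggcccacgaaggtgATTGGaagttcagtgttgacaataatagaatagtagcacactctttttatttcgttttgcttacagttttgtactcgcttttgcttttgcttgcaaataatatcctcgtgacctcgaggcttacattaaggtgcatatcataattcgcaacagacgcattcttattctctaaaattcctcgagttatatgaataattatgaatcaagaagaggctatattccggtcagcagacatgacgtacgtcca
VMA3 held a TATAAA match at 229 bases before the coding start and 2 overlapping matches further down, as well as CCCCT and CCAAT matches inside the coding sequence. STV1 held 1 CCAAT match and VMA5 none of the 6 motifs. Over all 10 subunits, CCCCT occurred in 4 (VMA1, VMA3, VMA4, VMA13), beside 21.6% of 6001 windows of the same length, TATAAA in 3 (45.2%), CCAAT in 2 (43.3%), GATGAG in 1 (20.4%), GGTGGC in 0 (6.9%) and CACGTG in 0 (2.9%). A match describes letters only, and no factor was measured here.

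The 10 genes lie on 8 chromosomes, no annotated RefSeq gene of R64 overlaps any of them, and only VMA10 has an intron in its coding sequence. VMA1 is at chrIV:126787-130002, VMA2 at chrII:491269-492822, VMA3 at chrV:100769-101251, VMA4 at chrXV:943656-944357 and VMA5 at chrXI:285030-286208. VMA8 is at chrV:58378-59148, VMA10 at chrVIII:187173-187679, VMA13 at chrXVI:643836-645272, VPH1 at chrXV:828052-830574 and STV1 at chrXIII:383303-385975. VMA4 carries a limit of its own: the feature YOR331C, whose systematic name places it next to VMA4 on the other strand and which has no entry in the RefSeq table used, held 5957 to 7876 counts a library, between 82.6% and 85.4% of those of VMA4. With its counts added, VMA4 differed by 0.01 in *sis2*Δ and -0.12 in WT in low potassium (edgeR adjusted p = 0.902 and 0.117). The log2 CPM of YOR331C followed that of VMA4 with r = 0.985 over the 12 libraries. How the authors' counting shared reads between the 2 features is not given in the sources used here, so the level of VMA4 is uncertain.

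The deviations of most subunits from their group means went with a trend over coding length in the same library, although length alone did not order them. Each library had a slope of log2 CPM, minus its group mean, on log2 coding length over 4733 genes, and this slope lay between -0.042 and 0.051 per doubling of length. Over the 12 libraries, the correlation between a subunit's deviation from its group mean and this slope was 0.787 for STV1, 0.736 for VMA1 and 0.688 for VPH1, the longest 3, and -0.633 for VMA10, -0.764 for VMA4 and -0.598 for VMA8 among the short ones. The others did not follow their length: VMA13, with 1437 coding bases, was at -0.603, between VMA5 (1179 bases, 0.402) and VMA2 (1554 bases, 0.405) in length, and VMA3, with 483 bases, was at 0.000543. These are descriptions over libraries that share the genes behind the slope. The comparison of 0.5 with 7.35 mM KCl had a slope of its own, -0.059 in *sis2*Δ and -0.054 in WT, and so did *sis2*Δ against WT, -0.052 in 0.5 mM KCl and -0.047 in 7.35 mM KCl. The rank correlation of log2 fold change with coding length over these genes was -0.201 for low potassium in *sis2*Δ and -0.151 in WT, and for the strains -0.574 in 0.5 mM KCl and -0.364 in 7.35 mM KCl; genes are not independent replicates.

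A setting chosen after seeing these deviations removed a smoothed trend over coding length from each library, over 5897 genes. The trend was taken from the mean of all 12 libraries and not of each group, so slopes between the groups were removed too. With the length trend so removed, VMA3 and VMA5 passed in WT at 0.25 and -0.20 (edgeR adjusted p = 0.00911 and 0.00647) and STV1 passed in *sis2*Δ at -0.14 (edgeR adjusted p = 0.0319). VMA4 then passed in WT as well (-0.14, edgeR adjusted p = 0.0219), and VMA3 did not pass in *sis2*Δ, as given above. Between the strains in 0.5 mM KCl, VPH1 moved to -0.11 (edgeR adjusted p = 0.491), against -0.17 before, and STV1 to -0.05 (0.777), against -0.12.

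**Figure D4:**
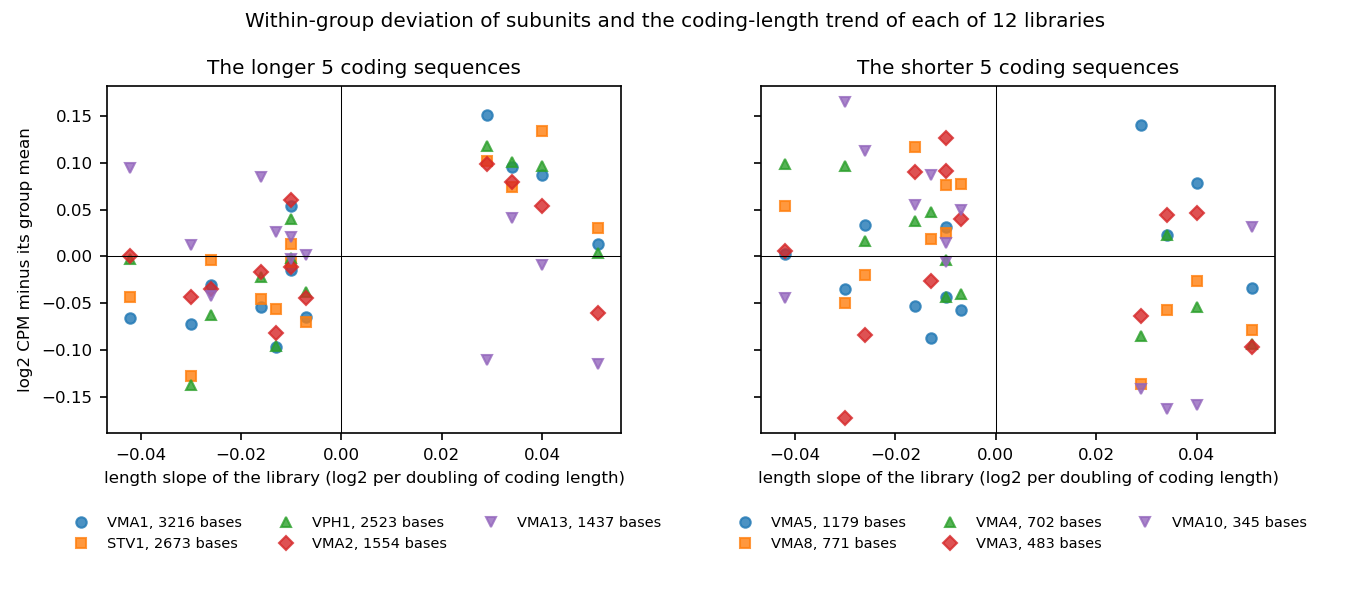
Deviation of the 10 subunits, the longer 5 on the left and the shorter 5 on the right, from their group mean in log2 CPM (y axis) against the slope of each of the 12 libraries with coding length (x axis, log2 per doubling); points are libraries, shapes are genes. VMA1, STV1 and VPH1 lie higher in libraries with a positive slope, and VMA10, VMA4, VMA8 and VMA13 mostly lower, with correlations of 0.688 to 0.787 and -0.764 to -0.598.

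Among the 5 other pump subunits, only VMA7 passed in low potassium in the main fit, and it was higher in both strains. Of all genes, 24.2% were called higher and 21.7% lower in *sis2*Δ, and 24.1% and 23.2% in WT. VMA7, subunit F of the rotor, had 198, 188 and 209 CPM in *sis2*Δ in 0.5 mM KCl, against 150, 158 and 171 CPM in *sis2*Δ in 7.35 mM KCl. The WT libraries held 176, 181 and 199 CPM in 0.5 mM KCl, against 150, 140 and 169 CPM in 7.35 mM KCl. The groups did not overlap, and the log2 fold change was 0.32 in *sis2*Δ (SE 0.072, edgeR adjusted p = 0.00117) and 0.28 in WT (SE 0.072, edgeR adjusted p = 0.00338). The 4 others, VMA6 (subunit d), VMA9 (subunit e) and the proteolipids VMA11 and VMA16, lay between -0.16 and -0.07 in *sis2*Δ and between -0.12 and -0.05 in WT. VMA16, at -0.16 in *sis2*Δ, passed in 5 of 21 alternatives, among them with the libraries blocked by batch (edgeR adjusted p = 0.0401). With the length trend removed, VMA9, VMA11 and VMA16 were called lower in *sis2*Δ, VMA9 and VMA11 at edgeR adjusted p = 0.00318 and 0.0126. VMA9 was then called lower in WT too, as it was without replicate 3 of WT in 0.5 mM KCl. None of the 5 passed between the strains in the main fit, where they lay between -0.08 and 0.10. There 1.2% of all genes were called higher and 0.583% lower in 0.5 mM KCl, and 6.38% and 7.04% in 7.35 mM KCl.

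Of 5 genes for the assembly of the membrane sector in the endoplasmic reticulum, PKR1 alone passed in both strains in low potassium, and it was lower. In *sis2*Δ, 3 of the 5 were called lower, where 21.7% of all genes were, and in WT 2, where 23.2% were. None was called higher, and the medians were -0.18 and -0.09. PKR1 had 54.4, 51.1 and 53.2 CPM in *sis2*Δ in 0.5 mM KCl, against 65.1, 65.6 and 66.5 CPM in *sis2*Δ in 7.35 mM KCl. The WT values were 55, 50.2 and 55 CPM in 0.5 mM KCl, against 71.4, 59.7 and 73.7 CPM in 7.35 mM KCl. No library of PKR1 in low potassium reached one in regular potassium of its strain, and it fell by 0.31 in *sis2*Δ and by 0.35 in WT on the log2 scale (edgeR adjusted p = 0.000779 and 0.000206). VMA12 passed in *sis2*Δ (-0.28, edgeR adjusted p = 0.00216; -0.09 in WT), VOA1 in *sis2*Δ (-0.18, 0.0176; -0.04 in WT) and VMA21 in WT (-0.28, 0.00246; -0.12 in *sis2*Δ). None of these strain differences passed the interaction test. VMA22 was at -0.08 in *sis2*Δ and 0.14 in WT. In 7.35 mM KCl, VMA12 was higher in *sis2*Δ than in WT (0.21, edgeR adjusted p = 0.0478), a call that 12 of 21 alternatives kept.

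Of the RAVE complex, which puts the sectors together, and the factors that take them apart, 1 of 5 was called higher in each strain, a different gene in each, where 24.2% of all genes were in *sis2*Δ and 24.1% in WT, and 0 lower. RAV2 passed in WT (0.16, edgeR adjusted p = 0.0479), a call that 14 of 21 alternatives kept, and, with the libraries blocked by batch, in *sis2*Δ (0.16, 0.0457). OXR1, which promotes disassembly, passed in *sis2*Δ (0.20, edgeR adjusted p = 0.0476), although its groups overlapped and 8 of 21 alternatives kept the call. RAV1 was lowest in *sis2*Δ (-0.09) and RTC5, another disassembly factor, in WT (-0.09). None of the 5 passed between the strains.

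Of the transporters that spend the proton gradient, ZRC1, AVT1 and VNX1 were lower and COT1 and AVT6 higher in low potassium in both strains. Of 11 exchangers of the vacuole, endosome and Golgi, 2 were called higher and 3 lower in *sis2*Δ, where 24.2% and 21.7% of all genes were. In WT, 2 were called higher and 5 lower, where 24.1% and 23.2% of all genes were. The median absolute log2 fold change of the 11 was 0.16 in *sis2*Δ and 0.22 in WT, beside 0.17 over all genes in each strain. ZRC1, a vacuolar zinc transporter, had 375, 342 and 381 CPM in *sis2*Δ in 0.5 mM KCl, against 515, 569 and 528 CPM in *sis2*Δ in 7.35 mM KCl. WT cultures had 392, 392 and 365 CPM in 0.5 mM KCl, against 547, 542 and 485 CPM in 7.35 mM KCl. It was the lowest of the list in both strains (-0.56 in *sis2*Δ, -0.45 in WT).

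COT1, which carries cobalt and zinc into the vacuole, was higher in low potassium in both strains, by 0.21 in *sis2*Δ and 0.52 in WT. The vacuolar amino acid importer AVT1 was lower (-0.41 and -0.40), as was VNX1, which exchanges sodium and potassium for protons, (-0.19 and -0.25), while the amino acid exporter AVT6 was higher (0.22 and 0.33). In *sis2*Δ the calls of VNX1, COT1 and AVT6 were kept in 18, 19 and 20 of 21 alternatives. Those of ZRC1 and AVT1, and the WT calls of all these genes, were kept in all 21. The exporters AVT3 (-0.22) and AVT4 (-0.17) passed in WT, in 20 and 16 of 21 alternatives, and AVT4 also in *sis2*Δ with the libraries blocked by batch (-0.16, edgeR adjusted p = 0.0282). In 7.35 mM KCl, COT1 (0.27, edgeR adjusted p = 0.00714) and AVT6 (0.22, 0.0308) were higher and VNX1 (-0.19, 0.029) lower in *sis2*Δ than in WT, calls that 21, 17 and 16 of 21 alternatives kept, and the calcium exchanger VCX1 was higher with the block (0.20, 0.0127). In 0.5 mM KCl none of the 11 passed. The strain difference of COT1 in its potassium response, -0.31, did not pass the interaction test (edgeR adjusted p = 0.0661). It passed in 4 of 20 alternatives, with the block (edgeR adjusted p = 0.0192), with DESeq2, without replicate 3 of *sis2*Δ in 7.35 mM KCl and with the length trend removed.

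Of 10 vacuolar hydrolases, which work in the lumen that the pump acidifies, 7 were called higher in low potassium in *sis2*Δ, where 24.2% of all genes were, and 8 in WT, where 24.1% were. None was called lower, and the medians were 0.35 and 0.47. As for the other lists, the set was not tested. PHO8, the vacuolar alkaline phosphatase, had 259, 233 and 279 CPM in *sis2*Δ in 0.5 mM KCl, against 98.2, 102 and 101 CPM in *sis2*Δ in 7.35 mM KCl. The WT libraries held 236, 212 and 202 CPM in 0.5 mM KCl, against 99.4, 104 and 92.3 CPM in 7.35 mM KCl. Every low-potassium library was above every regular one, at a log2 fold change of 1.36 in *sis2*Δ and 1.13 in WT (edgeR adjusted p = 1.73e-12 and 2.94e-11).

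PEP4, the proteinase that activates the other zymogens, was higher by 0.38 in *sis2*Δ and 0.58 in WT, and PRB1 by 0.51 and 0.55. The α-mannosidase gene AMS1 (0.95 and 0.84) and the aminopeptidase gene LAP4 (0.86 and 0.88) changed more. APE3 was lowest in WT (-0.09) and DAP2 in *sis2*Δ (-0.11), and neither passed. Between the strains, PRC1 alone passed, in 7.35 mM KCl (0.21, edgeR adjusted p = 0.0356, kept in 17 of 21 alternatives), and PEP4 did so there with the block (0.18, edgeR adjusted p = 0.042).

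The 137 cytosolic ribosomal protein genes were set beside the pump as a reference for the level of growth-related transcripts. Of them, 5 were called higher and 18 lower in low potassium in *sis2*Δ, where 24.2% and 21.7% of all genes were. In WT, 4 were called higher and 28 lower, where 24.1% and 23.2% of all genes were. The median was -0.09 in each strain. RPS9A was highest (0.45 in *sis2*Δ, 1.01 in WT) and RPS26B lowest (-0.42 and -0.39); both have near-identical copies, so their counts are uncertain. PMA1, the proton pump of the plasma membrane, had 13217, 13666 and 10734 CPM in *sis2*Δ in 0.5 mM KCl, against 11134, 10337 and 9598 CPM in *sis2*Δ in 7.35 mM KCl. WT had 13348, 12729 and 12400 CPM in 0.5 mM KCl, against 9490, 9556 and 8206 CPM in 7.35 mM KCl. The WT groups separated and the *sis2*Δ groups overlapped, at log2 fold changes of 0.28 in *sis2*Δ (edgeR adjusted p = 0.0133, kept in 18 of 21 alternatives) and 0.50 in WT (edgeR adjusted p = 7.65e-05).

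**Figure D5:**
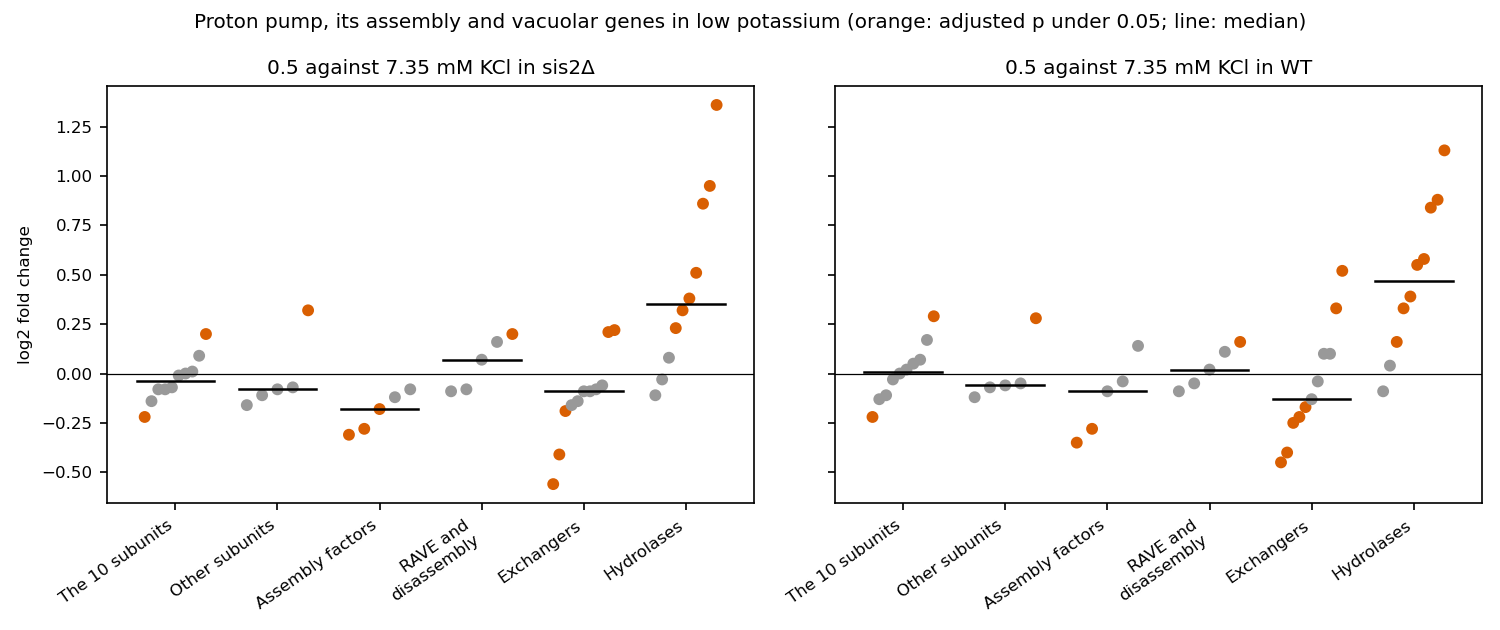
Log2 fold change of 0.5 over 7.35 mM KCl (y axis) for each gene of the pump, its assembly, the exchangers and the vacuolar hydrolases, in *sis2*Δ (left) and WT (right); orange points have an adjusted p below 0.05 and lines are medians. The hydrolases reach 1.36 in *sis2*Δ and 1.13 in WT, while the 10 subunits lie between -0.22 and 0.20 in *sis2*Δ and between -0.22 and 0.29 in WT.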

How the data were processed

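RNA from 12 cultures in 4 groups of 3 biological replicates was poly(A)-selected, made into strand-marking libraries and sequenced as paired reads of 150 bases. The authors deposited 1 table of expected counts, 40.11% of them whole, for 7112 features, with no normalization. The submitters' processing notes name bcl2fastq, cutadapt 2.6, STAR 2.7.6a, featureCounts (Subread 1.6.2) and build R64; the annotation, the strand setting and the handling of shared reads are not given in the sources used here. Reads divided between features would give the fractions in the table and can move counts of overlapping genes.

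Counts were rounded, filtered with filterByExpr by group and scaled by TMM in edgeR 4.0.16 (R 4.3.3). As in the authors' DESeq2 model, all 12 libraries entered 1 fit with 4 groups and no batch term. Glm quasi-likelihood tests were made for 5 contrasts, with Benjamini-Hochberg adjustment over 6691 genes and a threshold of 0.05. Intervals are 95% on the fit's degrees of freedom. The biological coefficient of variation was 5.7%, and replicates differed by a chi-square per degree of freedom of 8.08 to 46.1, so counting noise does not set the precision. Code was tested on simulated data.

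The labels give each replicate number as a batch, which pairs the libraries; same-numbered libraries of different groups had a median correlation of deviations of 0.0576 over 18 pairs, different-numbered ones -0.0343 over 36. What a batch was is not stated. Alternatives were DESeq2 1.42.0 and its size factors, upper-quartile factors, library totals alone, 2 other count filters, the batch block, the 6 libraries compared, each library left out, and 2 settings chosen after seeing the data (length trend removed, YOR331C added to VMA4). Upstream windows, positions and identities came from RefSeq R64 with Biopython 1.88, and 6022 of 7112 features matched it by systematic name. Named genes were the 10 subunits, the 5 others, the extremes and few called genes of each list, SIS2, PMA1 and the 3 genes most like the subunits' mean profile. Subunits and lists were chosen with earlier results of these data known.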

Additional observations from a re-analysis of the deposited data

Results flagged for a closer look

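By the interaction test, the response to potassium differed between the strains for 183 of 6691 genes (2.74%). Among them were 2 named genes outside the pump, RPS9A as an extreme of its list and SPO24. RPS9A, a ribosomal protein gene, had 497, 468 and 513 CPM in *sis2*Δ in 0.5 mM KCl, against 334, 383 and 364 CPM in *sis2*Δ in 7.35 mM KCl, and 454, 481 and 448 CPM in WT in 0.5 mM KCl, against 230, 215 and 243 CPM in WT in 7.35 mM KCl. Its interaction was -0.56 on the log2 scale (edgeR adjusted p = 0.00121). SPO24, the next gene downstream of VMA13 on the same strand, 678 bases away, was chosen after its values were seen. It had 667, 581 and 590 CPM in *sis2*Δ in 0.5 mM KCl, against 245, 230 and 201 CPM in *sis2*Δ in 7.35 mM KCl, and 708, 645 and 733 CPM in WT in 0.5 mM KCl, against 144, 133 and 169 CPM in WT in 7.35 mM KCl. Its interaction was -0.78 (edgeR adjusted p = 0.000578), while VMA13 next to it was at -0.07 (edgeR adjusted p = 0.804).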

How the results depend on the processing

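Under the alternatives, no value of a subunit that passed the test in any fit changed its sign. The subunits called lower in low potassium in *sis2*Δ numbered 1 and became 2 with library totals alone and 2 with DESeq2, and with the length trend removed those called higher there became 0 and those called lower in WT became 2. With 1 library left out, the subunits called higher in low potassium numbered 0 to 1 in *sis2*Δ and 1 to 2 in WT, those called lower 0 to 2 in each strain, and those lower in *sis2*Δ than in WT in 7.35 mM KCl 0 to 1. With the replicate block, no call of a subunit changed, and the strain difference of the VPH1 to STV1 ratio, -0.085, no longer passed (exact permutation p = 0.0625). Upper-quartile factors moved the median of all genes by 0.057 in low potassium in *sis2*Δ, and 67.3% of the called genes were then higher, against 52.7%. They gave 81.0% in *sis2*Δ against WT in 0.5 mM KCl, in place of 67.2%, and DESeq2 gave 50.4% in the interaction, in place of 62.3%. Leaving out replicate 2 of *sis2*Δ in 0.5 mM KCl raised the genes called between the strains in 0.5 mM KCl to 440 of 6705, against 119 of 6691. Subunits had at least 4176 counts in every library, so spread between replicates and not depth limits these results; the SE of a subunit's change between 2 groups was 0.0635 to 0.082. 1 strain stands for each genotype, and protein, sector assembly and acidity were not measured in these cultures. Vacuolar pH was measured by the study in a separate experiment, with a fluorescent pH sensor.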

Other observations

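Over the 12 libraries, the 10 subunits did not share 1 profile: of 45 pairs, Pearson's r of log2 CPM lay between -0.817 and 0.832 with a median of -0.021. VMA1, VMA2, VPH1 and STV1 went with each other (0.53 to 0.812) and against VMA10 (-0.817 to -0.563). The deviations of VMA1, VPH1 and STV1 also rose, and those of VMA10 fell, with the coding-length slope of the libraries, as given above. The part of that trend in these correlations was not tested. The genes outside the pump and its lists whose log2 CPM was most like the mean profile of the 10 were PMT1, a protein O-mannosyltransferase gene (r = 0.865), YOR161W-B (0.835) and DGK1, the diacylglycerol kinase gene (0.829). That mean profile was nearly flat, between -0.065 and 0.043 in log2 CPM with each gene's mean subtracted. The genes named were picked for having the highest r. These are descriptions over 12 libraries in 4 groups. A second feature beside a subunit, YDL185C-A, held 1178 to 1800 counts a library, between 3.49% and 3.86% of those of VMA1, and its log2 CPM followed VMA1 with r = 0.922 over the 12 libraries.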
